A study of Homo sapiens with 20 samples.

Results

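The mRNAs described here are 10 cytokine, chemokine and early response transcripts that textbooks list as carriers of AU-rich elements: TNF, CSF2, IL6, IL10, CXCL1, CXCL2, CXCL3, CXCL8, LIF and IER3. Every probe set annotated to exactly 1 of these genes was taken, whatever its level, among the probe sets that name 19353 genes alone. That gave 10 probe sets for 9 of the 10 genes, with a pair for CXCL2. CSF2 had no probe set naming it alone in the annotation used, so it is not analysed here. Of these genes, 3 were measured above the study's expression filter in HEK293 cells. The other 6 with a probe set read at or near background on these arrays in all groups.

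AU-rich elements are stretches of adenosine and uridine in the 3′ untranslated region (UTR) of short-lived mRNAs. ZFP36, also called tristetraprolin, binds them through its zinc fingers and brings deadenylases to the transcript, which shortens the poly(A) tail and leads to decay. In macrophages this limits TNF and other inflammatory mediators, and mice that lack the protein develop inflammation driven by TNF. HEK293 is a human embryonic kidney line of non-immune origin.

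The arrays were Affymetrix U133 Plus 2.0 chips of 4 groups of HEK293 cells, 5 arrays each. Induced EGFP-ZFP36 cells carried ZFP36 fused to a green fluorescent protein behind a doxycycline-controlled promoter and received 1 µg/ml doxycycline for 16 h, and the fluorescent cells were then sorted. Mock-induced EGFP-ZFP36 cells received water and were sorted with fluorescent cells excluded. Parental cells, without the transgene, received doxycycline or the water vehicle. The experiments were repeated on separate days, cells of several flasks were pooled before sorting, and doxycycline-treated transgenic flasks held fewer attached and more rounded cells. No stimulus of inflammation was named for any group. In such bulk samples, fewer cells of a type and less RNA per cell cannot be told apart.

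The deposited values were on a log2 scale, between a floor of 2.19 and 16.6, and 44.0% of all values lay within 0.05 of that floor. The ZFP36 probe set read 4.56 to 5.78 in induced and 4.85 to 5.92 in mock-induced cells, so it did not separate these groups. It read 3.03 to 4.54 in parental doxycycline and 2.77 to 4.31 in parental vehicle cells, below every array of the transgenic line. No source used here says whether the construct carries the part this probe set measures. The study showed the induced fusion protein on a Western blot. Markers of blood cells gave no probe set above the filter (0 of 8 with a probe set, 5 of them at the floor on every array), and the mean level of the list was 2.19 on every induced and mock-induced array and at most 2.26 on a parental one. Of 9 fibroblast and endothelial markers, 2 passed. COL1A1 averaged 9.15 in induced cells, against 6.84 in mock-induced cells, with 8.47 and 8.56 in parental cells given doxycycline and vehicle, so the mock-induced group was the low one. COL3A1 averaged 8.17 in induced cells, against 5.09 in mock-induced cells, with 4.58 and 4.90 in those parental groups, while DCN, PDGFRB, VWF and CDH5 stayed near the floor. The mean level of that list was 3.59 to 3.66 on induced and 2.99 to 3.11 on mock-induced arrays, and its part in the results below was not tested. Of 5 markers used for HEK293, NEFL, VIM and INA were above 7 on the log2 scale in every group, but PAX2 averaged 4.86 in induced and 2.77 in mock-induced cells, with 2.59 and 2.60 in the parental groups, and NEFM averaged 5.81 and 3.87 in the transgenic groups against 12.3 in both parental groups.

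Binding sites of ZFP36 in the 3′ UTRs of 5 of these genes show what the elements look like. They come from the part of the study's site table used here (1985 sites), measured by crosslinking in a separate HEK293 line with tagged ZFP36. The table held in part says nothing of TNF, CSF2, IL6, IL10 or CXCL3. Each site is written 5′ to 3′ on the strand of the mRNA as DNA letters, with every AUUUA pentamer (ATTTA) in capitals, overlapping pentamers joined.
CXCL1: tcttctATTTATTTATTTAttcattagtt
CXCL2: cacactctcccattatATTTAttg
CXCL8: taacttattaacctATTTAttatt
LIF, distal site: tcatATTTAaaatATTTAttttttat
LIF, proximal site: atatcctATTTAtattaacttattg
IER3, distal site: aatATTTAttttaacttatg
IER3, proximal site: ctcctaattaatATTTAtatgtATTTAtg

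The sites lie in build hg19, with the start and end as the table gives them; end minus start equals the length, so the start may be counted from 0. They are CXCL1 at chr4:74736392-74736421 on the plus strand, CXCL2 at chr4:74963213-74963237 on the minus strand and CXCL8 at chr4:74608816-74608840 on the plus strand. The LIF sites are chr22:30636502-30636528 and chr22:30638542-30638567, both minus, and those of IER3 are chr6:30711377-30711397 and chr6:30711429-30711458, both minus. All 7 sites were annotated to the 3′ UTR and all 7 hold AUUUA, as do 41.2% of the 912 3′ UTR sites of 20 to 29 bases in the table. The octamer UAUUUAUU, which contains AUUUA, is in 5 of the 7, against 9.54% of those sites. The nonamer UUAUUUAUU, which contains the octamer, is in the CXCL1 site alone, against 4.71%. Motifs were read on the mRNA strand. The genes were listed as carriers of AU-rich elements, and the sites were chosen by binding in that other line. The shares above are therefore no test of enrichment, and no test relates the sites to the levels below.

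TNF, a central inflammatory cytokine, read 2.19 on all 20 arrays, the floor of the table. IL6, an acute-phase cytokine, read 2.19 on all 20, and so did both CXCL2 probe sets, which measure a neutrophil chemokine. CXCL8, the chemokine also called interleukin 8, lay within 0.05 of the floor on all 20 arrays, with a highest value of 2.23. IL10, an anti-inflammatory cytokine, was within 0.05 of the floor on 19 arrays and read 2.40 on the other one, of parental vehicle cells. For these 5 genes no fold change is given, since all groups were at the floor. Of them, CXCL2 and CXCL8 hold a binding site listed above, found in another HEK293 line, as does CXCL1 below. A value at background on these arrays is therefore not read as absence of the mRNA from HEK293 cells.

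CXCL1, a neutrophil chemokine, was not at the floor of the table but on a repeated value of its own. It read 2.59, 2.59, 2.59, 3.86 and 2.59 in induced cells and 2.60, 2.82, 3.03, 2.59 and 2.59 in mock-induced cells. It read 2.59, 2.59, 2.86, 2.58 and 2.58 in parental doxycycline cells, and 2.59 on each of the 5 parental vehicle arrays. One and the same deposited value stood on 11 of the 20 arrays, and all group means were under the filter of 4.5 (2.84 in induced cells against 2.72 in mock-induced cells, and in parental cells 2.64 with doxycycline against 2.59 with vehicle). The few higher arrays were 1 in the induced, 2 in the mock-induced and 1 in the parental doxycycline group, and the groups overlapped.

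**Figure D1:**
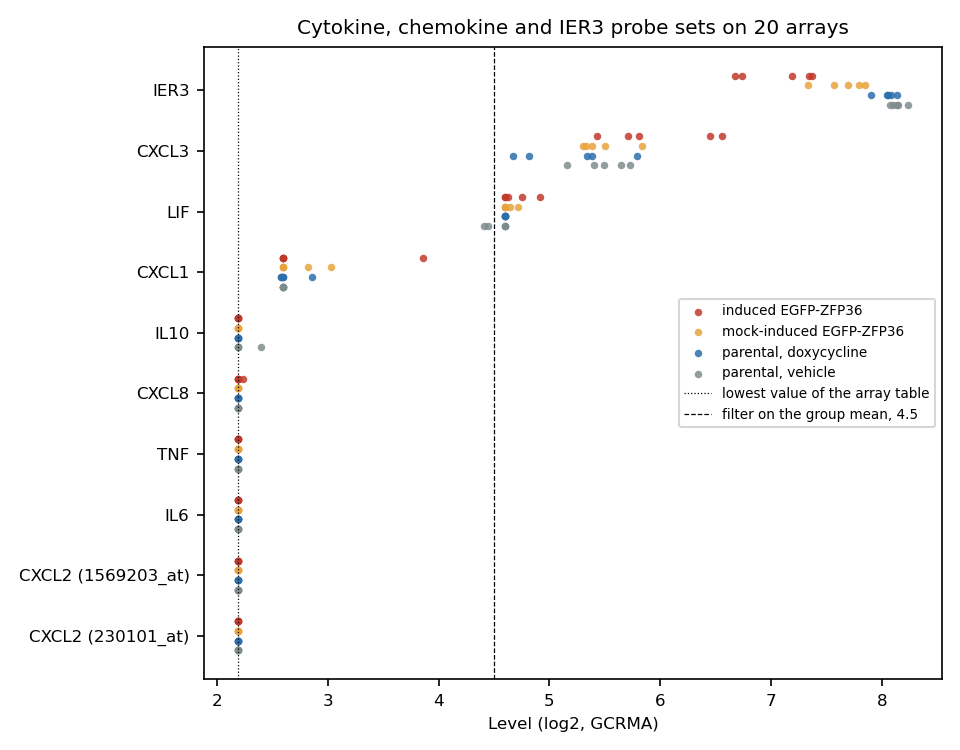
Level of each of the 10 probe sets on the 20 arrays (log2, horizontal axis), with 5 points per group in each row, the floor as a dotted line and the filter of 4.5 as a dashed line. TNF, IL6 and both CXCL2 probe sets sit on the floor in all groups, and IER3, CXCL3 and LIF are the rows with a group mean above 4.5.

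The filter, a mean above 4.5 in at least 1 group, was passed by IER3, CXCL3 and LIF. At a group mean above 5.5, IER3 and CXCL3 remained. Levels of different probe sets cannot be set against each other, so each gene is compared with itself. Differences are induced minus mock-induced, or as named, on the log2 scale, fitted with limma over all 18639 probe sets that passed the filter, and the study's threshold for a call was used, 0.01 after Bonferroni adjustment. Induced against mock-induced cells, 0 of the 3 were called, where 44.0% of all probe sets tested were. At an unadjusted p under 0.05, 2 of the 3 passed, IER3 and CXCL3, and the same genes passed with Benjamini-Hochberg adjustment at 0.05, against 85.5% of all probe sets tested. Of all probe sets tested, 77.2% had a smaller p than IER3 and 84.5% a smaller p than CXCL3 (limma).

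IER3 is an early response gene, induced by stress and NF-kappaB, whose product modulates apoptosis. It read 7.35, 6.67, 6.73, 7.19 and 7.37 in induced cells, against 7.85, 7.80, 7.33, 7.70 and 7.57 in mock-induced cells. It read 8.06, 8.14, 8.05, 7.90 and 8.09 in parental doxycycline cells and 8.10, 8.14, 8.15, 8.07 and 8.24 in parental vehicle cells. Replicates 2 and 3 of the induced group were the lowest of all 20 arrays, and replicates 1 and 5 overlapped with the lowest mock-induced array, replicate 3. Both parental groups lay above every array of both transgenic groups.

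IER3 averaged 7.06 ± 0.34 in induced cells and 7.65 ± 0.21 in mock-induced cells (SD, n = 5 each), a difference of −0.59 (SE 0.16, 95% confidence interval −0.93 to −0.24), or 1.50-fold lower in induced cells. In limma the Bonferroni-adjusted p was 1 and the Benjamini-Hochberg adjusted p was 0.00464. The difference was not large among the probe sets tested: 63.7% of them differed by more in either direction, and the SD over all differences was 1.29. The poly-A control spikes were brighter on induced arrays (8.80 ± 0.24 against 8.43 ± 0.18 in mock-induced, SD, n = 5 each). Centring the arrays on them gave −0.95 for IER3, which passed the threshold (limma, Bonferroni-adjusted p = 0.00225). In each poly-A centred fit limma gave IER3, CXCL3 and LIF the same SE (0.179 here). Such p-values do not rest on a gene's own spread. The spikes were brighter by a like amount with doxycycline in parental cells (8.75 ± 0.26 with doxycycline against 8.39 ± 0.63 with vehicle), where the same centring moved the IER3 difference to −0.45 (limma, Benjamini-Hochberg adjusted p = 0.493). The 3′ minus 5′ difference of the actin control probe sets, a sign of RNA quality, was 1.31 ± 0.13 on induced arrays, against 1.52 ± 0.14 on mock-induced arrays. The part of either in the result was not tested. Leaving out each array in turn gave −0.66 to −0.49 for IER3, with a Benjamini-Hochberg adjusted p (limma) of 0.00277 to 0.0133.

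In parental cells IER3 was not called either, as deposited or with poly-A centring. As deposited, the means were 8.05 ± 0.09 in parental doxycycline and 8.14 ± 0.06 in parental vehicle cells (SD, n = 5 each), a difference of −0.09 (SE 0.06, 95% confidence interval −0.22 to 0.03), and the groups overlapped. In that comparison 0 of the 3 genes were called, against 0% of all probe sets tested, and 0 passed under Benjamini-Hochberg adjustment, against 0%. At an unadjusted p under 0.05, 0 of the 3 passed, and 414 of 18639 probe sets did (limma). The groups overlapped for all 3 genes, while 0.258% of probe sets tested had no overlap.

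The transgenic line without doxycycline read lower for IER3 than parental cells. Mock-induced cells differed from parental vehicle cells by −0.49 (SE 0.09, 95% confidence interval −0.70 to −0.29), 1.41-fold lower, and the groups did not overlap. Such non-overlap was found for 1 of the 3 genes, and for 58.5% of all probe sets tested. The Bonferroni-adjusted p of limma was 1, with 0 of the 3 called against 17.1% of all probe sets tested. The Benjamini-Hochberg adjusted p was 6.9e-04, and 1 of the 3 passed at 0.05, against 70.7% of all. The transgenic and parental cells were grown and passaged separately, so line and handling cannot be told apart here.

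From low to high, IER3 was ordered as induced, mock-induced, parental with doxycycline and parental with vehicle. Over the 18 pairs of groups compared for the 3 genes, an exact permutation test (two-sided, 5 arrays against 5, smallest p 0.00794) was run on each. Induced and mock-induced cells gave p = 0.0238 by the exact permutation test (0.0816 after Benjamini-Hochberg adjustment over 18). Mock-induced and parental doxycycline cells gave an exact permutation p of 0.00794 (adjusted 0.0357), the smallest possible. The parental neighbours, doxycycline and vehicle, did not differ beyond their spread (exact permutation p = 0.0794). Induced cells stood −0.98 from parental doxycycline cells and −1.08 from parental vehicle cells, 1.98-fold and 2.11-fold lower, with no overlap in either pair (exact permutation p = 0.00794 each).

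**Figure D2:**
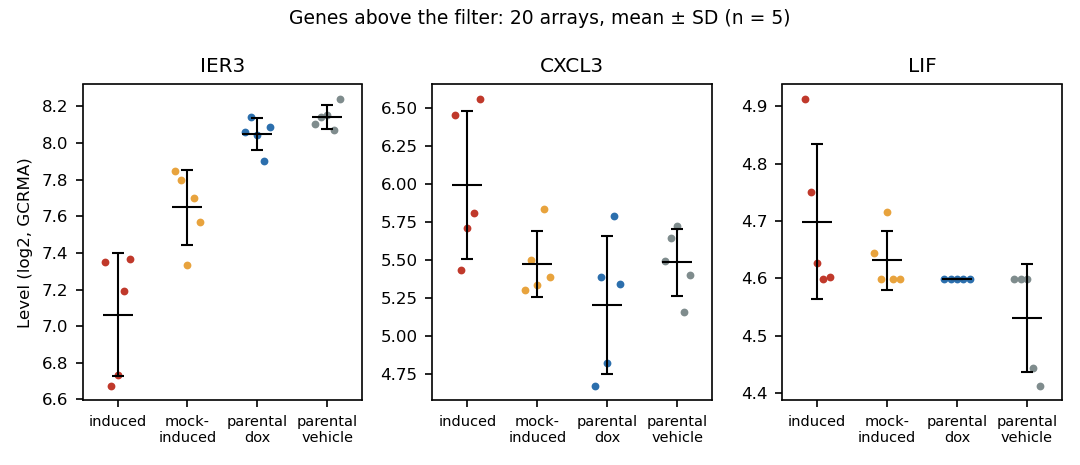
Level of IER3, CXCL3 and LIF (log2, vertical axes with different ranges) on each array of the 4 groups, with the mean and SD as black bars (n = 5). IER3 means are 7.06, 7.65, 8.05 and 8.14 from left to right, CXCL3 is spread most in the induced and parental doxycycline groups, and 12 of the 20 LIF points share 1 value.

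CXCL3, a chemokine for neutrophils, averaged higher in induced than in mock-induced cells. It read 6.45, 5.43, 5.71, 5.81 and 6.56 in induced cells, against 5.30, 5.5, 5.33, 5.84 and 5.39 in mock-induced cells. Replicates 1 and 5 of the induced group were above every other array of the 20, and the other 3 induced arrays lay within the range of the remaining arrays. Those same replicates were also the highest for IER3 within the induced group. Parental doxycycline cells read 4.67, 5.39, 4.82, 5.79 and 5.34, and parental vehicle cells 5.49, 5.65, 5.72, 5.16 and 5.40, so these groups overlapped with each other and with mock-induced cells.

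The CXCL3 means were 5.99 ± 0.49 in induced and 5.47 ± 0.22 in mock-induced cells (SD, n = 5 each), a difference of 0.52 (SE 0.21, 95% confidence interval 0.05 to 0.99), or 1.44-fold. The Bonferroni-adjusted p of limma was 1 and the Benjamini-Hochberg adjusted p was 0.0380. Over the 10 fits that each left out 1 array the difference ran from 0.38 to 0.66, and 4 of them passed at 0.05. The Benjamini-Hochberg adjusted p (limma) was 0.0923 without induced replicate 1 and 0.0886 without induced replicate 5, and 0.0596 to 0.0783 without mock-induced replicate 1, 2, 3 or 5. The exact permutation p was 0.0714 (adjusted 0.129), so the difference did not exceed the replicate spread by that test.

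Parental doxycycline and vehicle cells averaged 5.2 ± 0.46 and 5.48 ± 0.22 for CXCL3 (SD, n = 5 each), a difference of −0.28 (95% confidence interval −0.74 to 0.17). It was −0.15 without parental doxycycline replicate 1, −0.19 without replicate 3 and −0.43 without replicate 4 of that group, and −0.64 with poly-A centring, with a Benjamini-Hochberg adjusted p (limma) of 0.493 in the last and 1 in the others. Mock-induced and parental vehicle cells differed by −0.01 (95% confidence interval −0.30 to 0.27). The within-group SD of CXCL3, 0.346 on average, was above the median of 0.235 for probe sets at levels from 5 to 6, while that of IER3, 0.174, was near the median of 0.171 at 7 to 8.

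LIF, a cytokine that signals through LIFR and IL6ST, passed the filter but hardly varied. It read 4.91, 4.75, 4.63, 4.60 and 4.60 in induced cells, and 4.64, 4.60, 4.72, 4.60 and 4.60 in mock-induced cells. It read 4.60 on all 5 parental doxycycline arrays, and 4.60, 4.60, 4.60, 4.44 and 4.41 in parental vehicle cells. An identical deposited value, 4.60, stood on 12 of the 20 arrays, and 1.55% of the probe sets above the filter shared 1 value on at least 10 arrays. The LIF group means above 4.5 therefore rest mostly on this repeated value. Induced and mock-induced cells differed by 0.07 (SE 0.07, 95% confidence interval −0.08 to 0.22), a sign that turned to −0.05 when arrays were centred on the hybridization controls and to −0.29 with poly-A controls. Mock-induced and parental vehicle cells differed by 0.10 (95% confidence interval −0.02 to 0.22), and parental doxycycline and vehicle cells by 0.07 (95% confidence interval −0.05 to 0.18).

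Whether the doxycycline difference differed between the transgenic and parental lines was tested with the interaction. It is the induced-minus-mock difference less the parental doxycycline-minus-vehicle difference. Induced cells were sorted as fluorescent and mock-induced cells with fluorescent cells excluded, a contrast that parental cells without the transgene cannot hold. Doxycycline and sorting therefore cannot be told apart in the interaction. The interaction was −0.49 for IER3 (SE 0.17), 0.80 for CXCL3 (SE 0.31) and −0.001 for LIF (SE 0.09). Part of the CXCL3 value is the parental difference of −0.28, which was itself not called. None was called (0 of 3, against 39.7% of all probe sets tested, limma, Bonferroni), 2 of the 3 had an unadjusted p under 0.05, and 2 of the 3 passed with Benjamini-Hochberg adjustment, against 77.6% of all. A smaller interaction p than that of IER3 was found for 72.2% of all probe sets tested, and than that of CXCL3 for 74.0%. The adjusted p was 0.0154 for IER3 and 0.0229 for CXCL3 (limma, Benjamini-Hochberg). With poly-A centring neither passed, at 0.263 for IER3 and 0.0604 for CXCL3, and CXCL3 also did not pass with no filter (0.0629) or with hybridization centring (0.118).

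**Figure D3:**
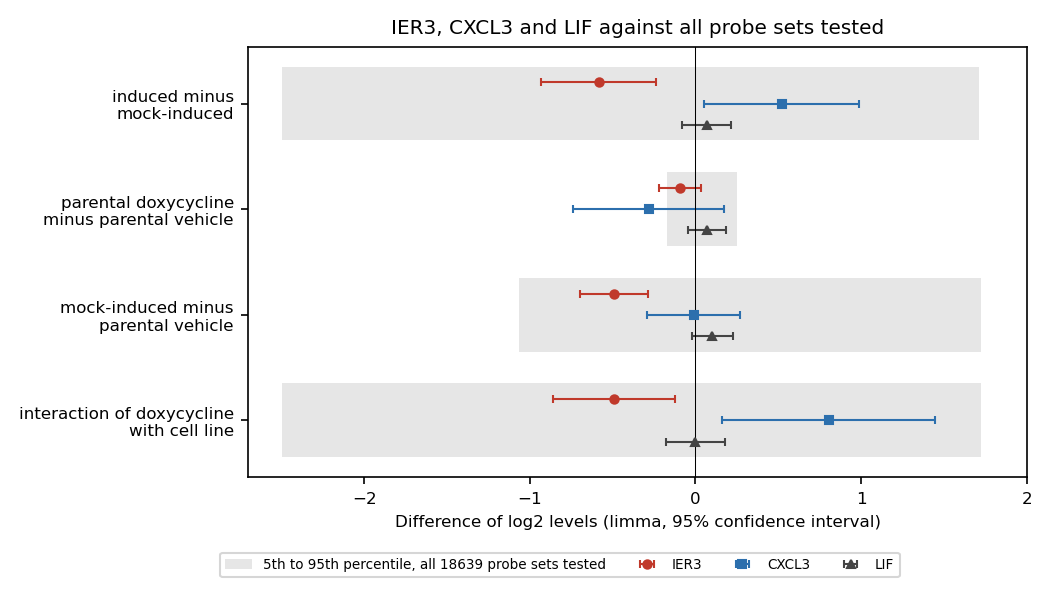
Differences of log2 levels with 95% confidence intervals (limma) for IER3, CXCL3 and LIF in the 3 pairwise comparisons and the interaction, over a grey bar from the 5th to the 95th percentile of all 18639 probe sets tested. The intervals of IER3 (−0.93 to −0.24) and CXCL3 (0.05 to 0.99) lie on opposite sides of 0 for induced minus mock-induced cells, inside the grey bar.

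The groups did not overlap between induced and mock-induced cells for 76.9% of all probe sets tested, and for 0 of these 3. For each of the 3 genes, the genes whose 4 group means were nearest to it after centring each gene were listed. IER3 was nearest to ACTN1, an actin crosslinker (root mean square difference 0.0116 over the 4 group means), which averaged 11.0 in induced cells against 11.5 in mock-induced cells, and in parental cells 12.0 with doxycycline against 12.1 with vehicle. LRP2 and MTERF3 followed at 0.0139 and 0.0159. CXCL3 was nearest to RUFY3 (0.0274), CD276 (0.0285) and AP4M1 (0.0314), and LIF to KATNA1 (0.0081), CNBP (0.0091) and TPR (0.0132).

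Related genes were read from lists, with the brightest probe set of each gene, and 48.0% of genes tested this way were called between induced and mock-induced cells. Of 25 other mRNAs with AU-rich elements, 24 had a probe set and 3 passed the filter, 14 being at the floor on every array. CXCL6, a chemokine for neutrophils, was lower, at 3.61 ± 0.21 in induced and 5.76 ± 0.16 in mock-induced cells (SD, n = 5 each; difference −2.15, SE 0.11, limma Bonferroni-adjusted p = 2.0e-05), and 2.23 and 2.43 in parental doxycycline and vehicle cells. Only its mock-induced mean was above the filter of 4.5. CXCL6 thus entered the test through the group in which it was high, and its call is no independent support. VEGFA, an angiogenic factor, averaged 10.9 and 10.2 in induced and mock-induced cells and was not called (difference 0.67), and CSF1 read one deposited value, 5.48, on all arrays of both groups. IL1B, IL2, IL3, IFNG and IFNB1 averaged within 0.05 of the floor in all 4 groups.

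Receptor mRNAs moved in both directions. Of 11 receptor genes, 5 passed the filter, 2 were lower, 2 higher and 1 not called, with a median difference of 1.23 beside 0.20 over all genes. IL6ST, the signalling chain shared by IL6 and LIF, fell to 10.3 ± 0.11 in induced cells, against 12.2 ± 0.08 in mock-induced cells (difference −1.89, limma Bonferroni-adjusted p = 3.2e-07). LIFR, its partner for LIF, fell to 8.29 ± 0.04 in induced cells, against 9.78 ± 0.10 in mock-induced cells (difference −1.49). TNFRSF1A, the widely expressed TNF receptor, rose to 10.1 ± 0.11 in induced cells, against 8.04 ± 0.14 in mock-induced cells (difference 2.02). IL10RB, a chain of the IL10 receptor, rose to 10.7 ± 0.03 in induced cells, against 9.45 ± 0.06 in mock-induced cells (difference 1.23). IL6R, the IL6-binding chain, averaged 6.94 and 5.29 and was not called (SD over n = 5 each in these sentences). In parental doxycycline and vehicle cells IL6ST averaged 12.1 and 12.0, LIFR 9.35 and 9.39, TNFRSF1A 8.15 and 8.12, and IL10RB 8.10 and 8.11. TNFRSF1B, IL10RA, CSF2RA, CSF2RB, CXCR1 and CXCR2 did not pass the filter.

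Of 11 NF-kappaB factors and inhibitors, which regulate many cytokine genes, 10 had a probe set and 8 passed the filter. Between induced and mock-induced cells 1 was lower, 2 higher and 5 not called, with a median difference of 0.73. RELA, a subunit of NF-kappaB, rose to 9.89 ± 0.08 in induced cells, against 8.84 ± 0.08 in mock-induced cells (SD, n = 5 each; difference 1.06). IRF1, a transcription factor of interferon responses, rose to 7.91 ± 0.08 in induced cells, against 6.73 ± 0.14 in mock-induced cells (difference 1.18). NFKB1, another subunit, fell to 7.02 ± 0.09 in induced cells, against 7.64 ± 0.04 in mock-induced cells (difference −0.62). In parental doxycycline and vehicle cells IRF1 averaged 6.26 and 6.23 and NFKB1 8.23 and 8.11. RELA averaged 9.42 in both parental groups, so the mock-induced group was the low one for RELA. TNFAIP3, an inhibitor of the pathway, averaged 6.54 and 6.07 and NFKBIA 9.39 and 8.72 in induced and mock-induced cells, neither called. The relatives IER2 and IER5 passed the filter and were not called (differences −0.05 and −0.25). The 8 called list genes kept their sign under both control centrings.

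**Figure D4:**
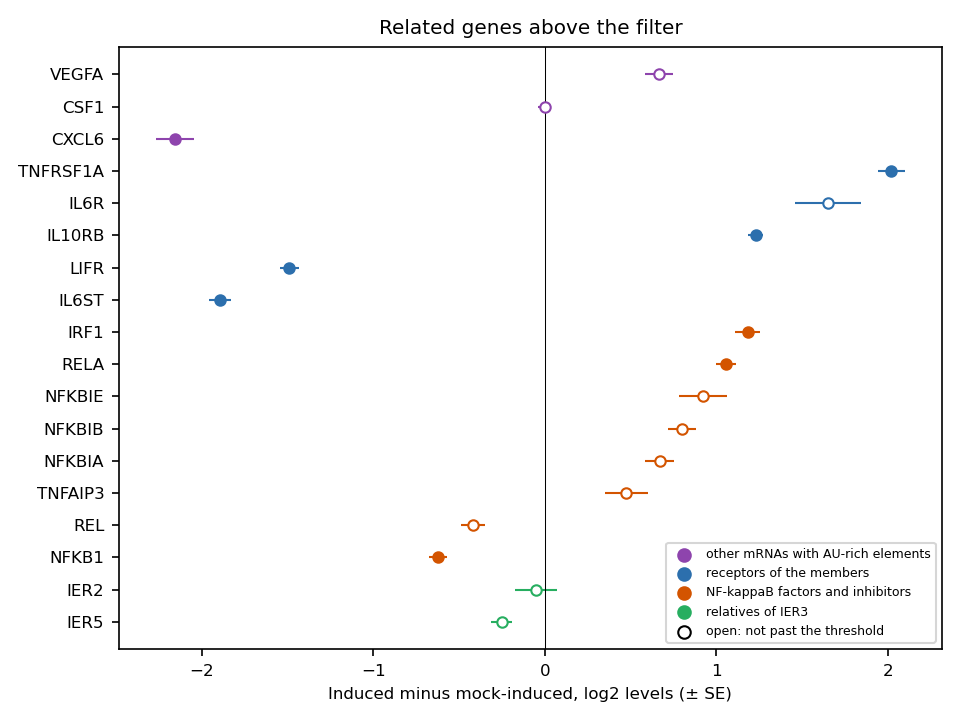
Induced minus mock-induced difference of log2 levels (horizontal axis, ± SE) of the 18 related genes above the filter, coloured by list, with filled points for genes past the Bonferroni threshold and open points for the rest. CXCL6, IL6ST and LIFR lie furthest to the left at −2.15, −1.89 and −1.49, and TNFRSF1A furthest to the right at 2.02.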

How the data were processed

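The arrays were deposited as log2 values that the authors made with GCRMA, named in the submitters' processing notes (no version stated), and a probe-to-gene annotation of the platform was used for names. Of 50441 probe sets, 38070 name 1 gene, 1423 several and 10886 none, and 62 are controls. The filter, a group mean over 4.5, left 18639 probe sets, tested with lmFit and eBayes of limma 3.58.1 in R 4.3.3 on the arrays of the groups compared, and on all 20 for the interaction. Single values were tested with an exact permutation test (scipy 1.17.1). The fits were tested on simulated data. The gene list, related lists and comparisons were chosen with earlier results of these data known. Named are all probe sets of the 10 genes, up to 4 called genes of each list by p, other list members picked after their values were seen, and the 3 nearest genes by group means. The number of arrays limits the precision. Alternatives are in the closing section. Per the study's methods the replicates came from separate days. Site sequences came from the study's site table, shortened here.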

Additional observations from a re-analysis of the deposited data

Results flagged for a closer look

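A probe set of these genes varied in 16 groups of 5 arrays. Of these groups, 4 held an array whose gap to the nearest other was most of the group's range (Dixon's test at 95%). The test's rate of about 1 in 20 by chance assumes a normal spread. It does not hold for groups with repeated values, so the count of 4 is not set against it. CXCL1 read 3.86 on induced replicate 4, the other induced arrays being at 2.59, and 2.86 on parental doxycycline replicate 3. IL10 read 2.40 on parental vehicle replicate 4 and CXCL8 2.23 on induced replicate 2, with the rest of each group at or close to the floor of 2.19. All 4 values belong to probe sets under the filter, where most arrays share 1 repeated value.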

How the results depend on the processing

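Between induced and mock-induced cells the Bonferroni count was 8198 of 18639 probe sets (44.0%). Without the _s_at and _x_at probe sets it was 5445 of 12157, a like share (44.8%). The count became 15933 with Benjamini-Hochberg adjustment, 3728 with a separate spread for each group and 4352 with the replicate number as a block. Without each array in turn it was 6796 to 7380. Between mock-induced and parental vehicle cells the count was 3185 of 18639 (17.1%), and 2064 of 38070 (5.42%) with no filter. It became 13172 with Benjamini-Hochberg adjustment and 5354 with all 20 arrays in 1 model. With separate spreads it was 1137, with the replicate block 921 and with poly-A centring 1503. The interaction count of 7402 became 14458 with Benjamini-Hochberg adjustment, and 4834 and 2608 when centred on hybridization and poly-A controls. The parental count was 0 throughout.

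The methods describe day pairs, but the labels do not tie the replicate numbers to days, so the numbers were not taken as pairs. Correlations of same-numbered deviations ran from 0.01 to 0.21 for induced and mock-induced cells and −0.19 to 0.38 for parental cells. Under the block the adjusted p (limma, Benjamini-Hochberg) was 0.0037 for IER3 and 0.0596 for CXCL3, which then no longer passed. IER3 gave −0.59 and CXCL3 0.52 under Benjamini-Hochberg adjustment, both then past the threshold. With poly-A centring IER3 gave −0.95, past the Bonferroni threshold, but with an SE shared with CXCL3 and LIF rather than its own. Poly-A centring moved every induced-minus-mock difference by −0.36 and hybridization centring by −0.12. CXCL3 lost its Benjamini-Hochberg call with no filter (0.121), separate spreads (0.0890), hybridization (0.119) and poly-A centring (0.420), and IER3 lost its call between mock-induced and parental vehicle cells with poly-A centring (0.194). IER3 without probe sets ending in _s_at has no value. LIF turned to −0.0498 and −0.295 (induced minus mock-induced, hybridization and poly-A) and to −0.288 (parental, poly-A). Leaving out arrays moved LIF's interaction between −0.0546 and 0.0284, and CXCL3 mock-induced minus parental vehicle between −0.103 and 0.0485. The cause was not tested. A filter of 3.5 on the group mean was passed by 3 genes, LIF among them mostly on its repeated value, and 5.5 by 2. At either tolerance 5 probe sets were at the floor on every array.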
